A study of Mus musculus with 20 samples.

Results

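Oxidative phosphorylation genes were taken as all protein-coding mouse genes of GENCODE release M21 whose symbols name subunits or assembly factors of the respiratory chain and ATP synthase: the Nduf, Sdh, Uqcr, Cox4 to Cox8 and Atp5 genes of the nucleus and the mt-Nd, mt-Co, mt-Cytb and mt-Atp genes of the mitochondrial DNA. The rule returned 107 of 54838 counted genes, 94 nuclear and 13 mitochondrial, and used no measured value. Ovaries of females aged 77 days were compared between FL1, an outbred line selected over many generations for high fertility, and ctrl, an unselected line kept from the same outbred base. Each line was sampled at estrus, when ovulation takes place, and at diestrus, when corpora lutea are active, the stage being read from vaginal cytology, which gave 4 groups of 5 animals. Whole ovaries were cleaned of fat, oviduct and tunica, and the poly(A) RNA was measured by QuantSeq, which places 1 short read near the 3′ end of each captured transcript. A label field for the source names FL1 on every sample, also on the ctrl animals, and the line was therefore taken from the sample titles.

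Oxidative phosphorylation couples the oxidation of nutrients to the making of ATP at the inner mitochondrial membrane. Complex I (NADH dehydrogenase) and complex II (succinate dehydrogenase) pass electrons to ubiquinone, complex III (cytochrome bc1) passes them to cytochrome c, complex IV (cytochrome c oxidase) passes them to oxygen, and complex V (ATP synthase) uses the proton gradient built on the way. Complex II is encoded wholly in the nucleus, while complexes I, III, IV and V are assembled from subunits of both genomes. In the ovary, steroid-making luteal and theca cells and the growing oocyte are rich in mitochondria, where cholesterol side-chain cleavage also takes place.

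The libraries held between 5991223 and 10352718 counts (median 6957533), so that a gene with 0 counts could still make up to 3 counts, or 0.290 to 0.501 CPM (counts scaled to a library of 1000000), by counting error alone. Same-group libraries differed from each other by more than sampling noise (chi-square per gene 6.32 to 46.6 over 40 pairs), and none was counted as a copy of another. Ovarian identity was present in all libraries, since the luteal list (6 genes) held 1.08 to 4.10% of all counts and the granulosa list (6 genes) 0.0847 to 0.336%. The skeletal muscle list and the oviduct list stayed at or below 2.50 CPM for every gene, and Ucp1, the defining gene of brown fat, was at 0 in every library. In estrus the luteal share was 1.08 to 3.08% in ctrl and 1.51 to 3.08% in FL1, and in diestrus it was 2.46 to 4.10% in ctrl and 2.87 to 3.59% in FL1. In whole ovaries a change in the number of a cell type and a change in RNA per cell cannot be told apart.

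The mitochondrial genes were read first for whether a 3′ count could be assigned to them. Mouse chromosome 1 carries copies of a block of the mitochondrial genome, annotated as Gm29216, Gm28661, Gm10925, Gm28437, Gm28438 and Gm10222 on the minus strand. For 6 mitochondrial genes, at least 98.8% of the 51-base windows in the last 300 bases also occurred in another annotated gene: mt-Co2 (100%), mt-Co1 (100%), mt-Co3 (99.6%), mt-Atp6 (98.8%), mt-Nd3 (98.8%) and mt-Nd4l (98.8%). The share was 31.6% for mt-Nd2, 1.6% for mt-Nd5 and 0% for mt-Nd1, mt-Nd4, mt-Nd6, mt-Cytb and mt-Atp8. The deposited counts are described as uniquely assigned reads. A read wholly inside sequence present in both places would then be credited to neither, but how such reads were handled is not stated in the sources used here. The last 60 bases of mt-Co2, the second catalytic subunit of complex IV, show the problem, because its copy Gm28661 (GRCm38, chr1:24614885-24615565) has 0 differing bases over 681 aligned bases.
mt-Co2: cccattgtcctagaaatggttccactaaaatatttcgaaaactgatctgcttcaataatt
Gm28661: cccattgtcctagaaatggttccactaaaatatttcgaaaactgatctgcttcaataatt
The last bases of mt-Nd3, a complex I subunit, are likewise shown with its copy Gm28438 (chr1:24612775-24613119), which differs over 345 bases at a single position (T3C, counted from the first base of the copy).
mt-Nd3: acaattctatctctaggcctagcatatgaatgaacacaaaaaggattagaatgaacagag
Gm28438: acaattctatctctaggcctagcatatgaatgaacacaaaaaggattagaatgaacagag

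Most genes with at least 98.8% of windows shared had few or no counts, and mt-Atp8, with 0% shared, had none. The members mt-Co2, mt-Co3, mt-Atp6, mt-Atp8 and mt-Nd4l had 0 counts in all 20 libraries, as did the second Ensembl entry of Atp5o (ENSMUSG00000116933). For mt-Nd3 the 20 libraries held 64 counts in all, 0 to 11 each, while its chromosome 1 copy Gm28438 held 5880, 79 to 1033 each. A level of mt-Nd3 is therefore not given. mt-Co1 had between 3149 and 8924 counts per library although its last 300 bases are fully shared, and over its whole length 50.6% of windows were shared; Gm29216, the copy of its end, had 0 or 1 count. No copy was found for mt-Atp8 in the annotated transcripts, and no genome sequence was used here to search between the annotated copies. The end of mt-Atp8 (M:7766-7969) overlaps mt-Atp6 (M:7927-8607), and that of mt-Nd4l (M:9877-10173) overlaps mt-Nd4 (M:10167-11544). Whether mt-Atp8 and mt-Nd4l have a transcript end of their own was not examined. The part of these overlaps and of shared ends in their 0 counts was not tested. The comparisons below thus hold 7 mitochondrial genes, mt-Nd1, mt-Nd2, mt-Nd4, mt-Nd5, mt-Nd6, mt-Cytb and mt-Co1, and leave complex V without a mitochondrial member.

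**Figure D1:**
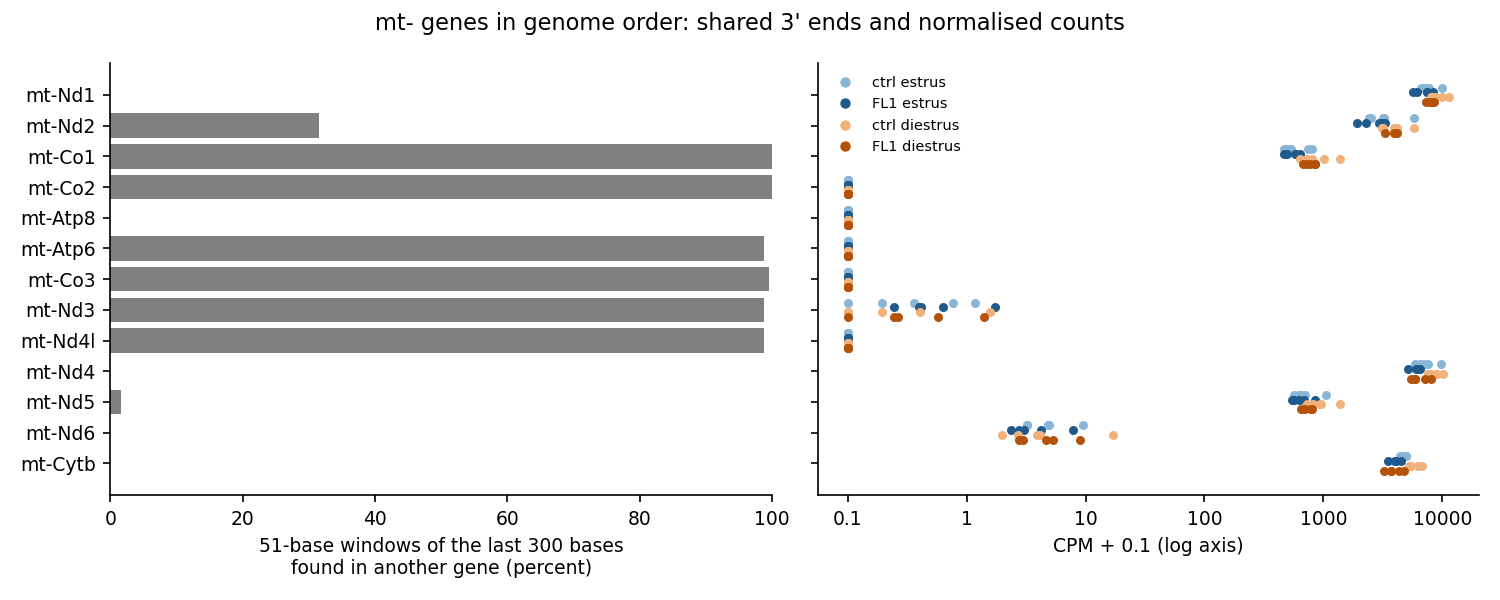
Percent of 51-base windows in the last 300 bases of each of the 13 mitochondrial protein genes that also occur in another annotated gene (left panel) and CPM plus 0.1 on a log axis in the 20 libraries, coloured by group (right panel), with genes in genome order from the top. The 5 genes at 0 counts sit at the left edge of the right panel, and of these only mt-Atp8 has no shared window in the left panel.

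Several nuclear members also had processed copies. Ndufa12 and Atp5g1 are shown with a near-identical copy, because the counts of the parent must be read with those of the copy. Their ends shared 27.4% and 35.5% of windows with another annotated gene. The share was higher for other nuclear members, among them Atp5h (57.1%), Atp5g2 (52.6%), Cox7c (49.4%) and Ndufs5 (47.4%). For the called members Atp5o and Cox5b it was 15.7% and 14.7%. Counts of the copies of these other members are not given here. Capitals mark the base that differs within the last 60 aligned bases. These are the ends of the aligned stretches and not of the parent transcripts, which have 566 bases for Ndufa12 and 4660 for Atp5g1. Ndufa12, an accessory subunit of complex I (chr10:94198720-94221443, plus strand), and its copy Gm15920 (chr5:130188395-130188796, plus strand) differ at 2 of 402 bases, A99G and T378C. Atp5g1, one of the genes for the c-ring of ATP synthase, and its copy Gm10039 (chr11:100361716-100362126, minus strand) differ at 1 of 411 bases, G385A. Positions are counted from the first base of the copy's transcript, and the base of the parent gene stands first.
Ndufa12: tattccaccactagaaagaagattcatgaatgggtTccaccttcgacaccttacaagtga
Gm15920: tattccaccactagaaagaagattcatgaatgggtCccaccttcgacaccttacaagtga
Atp5g1: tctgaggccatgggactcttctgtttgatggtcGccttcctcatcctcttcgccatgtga
Gm10039: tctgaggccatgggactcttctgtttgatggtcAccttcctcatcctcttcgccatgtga

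The levels of the nuclear genes are given in CPM, a 3′ tag level that is not divided by transcript length because each transcript gives its tag at the end. Atp5g3, a c-ring gene of complex V, was the highest nuclear member with group means of 1539 CPM in ctrl and 1903 CPM in FL1 in estrus, and of 2043 and 2145 CPM in diestrus. Cox6a1 was the highest of complex IV (850, 893, 1080 and 1060 CPM in the same order), Uqcrq the highest of complex III (539, 636, 671 and 731) and Ndufa6 of the accessory complex I subunits (385, 397, 490 and 439). In complex II, Sdha (262.5, 244, 276 and 294) and Sdhb were close, and Sdhb was the higher in every group but FL1 in diestrus. Among the complex I core subunits Ndufs3 was lowest (26.2 to 33.9 CPM), and among the assembly factors named by the rule Ndufaf8 (72.0 to 82.1 CPM) was highest and Ndufaf6 (9.40 to 13.2) lowest. Among the members tested, the low ends were Ndufa4l2 (4.08 to 5.53 CPM), Sdhd (21.0 to 45.1), Uqcrb (124 to 141) and Cox6a2 (0.347 to 1.82). In complex V, Atp5g2 (2.35 to 2.54) was low, and Atp5g1 (1.30 to 5.85) lay below it in both FL1 groups. The ends of both genes are shared with copies. Of the mitochondrial genes mt-Nd1 was highest at 7690 ± 1358, 7050 ± 1096, 9293 ± 1424 and 7975 ± 483 CPM (SD, n = 5). mt-Nd6, the only one of the 13 encoded on the light strand, was lowest of those tested at 5.04 ± 2.62, 3.93 ± 2.22, 5.88 ± 6.31 and 4.82 ± 2.48 CPM, and since the strand setting of the counting is not known, reads of the opposite strand cannot be told apart from its own.

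Tissue isoforms of the same subunit differed widely in level as counted, and in every set 1 form had far higher counts than the others. Cox4i1 had group means of 552 to 655 CPM against 2.09 to 4.21 for Cox4i2, the lung form. Cox6a1 had 850 to 1080 CPM against 0.347 to 1.82 for Cox6a2, the heart and muscle form, and Cox8a had 327 to 389 CPM against 0.145 to 0.379 for Cox8b. Cox8c and Cox7b2 were near 0, while Cox7b had 229 to 293 CPM. Cox6b1 had 395 to 461 CPM and Cox6b2, the testis form, 18.6 to 23.9 CPM. Cox7a2 had 407 to 478 CPM, Cox7a2l, a factor of supercomplex assembly, 72.4 to 86.9, and Cox7a1, the heart and muscle form, 9.96 to 40.1. Ndufa4 had 111 to 148 CPM against 4.08 to 5.53 for its paralogue Ndufa4l2. Ndufa4 is now counted as a complex IV subunit, but both genes stand with the accessory subunits of complex I in the counts here. Of the c-ring genes, Atp5g3 had 1539 to 2145 CPM, Atp5g2 2.35 to 2.54 and Atp5g1 1.30 to 5.85, the last being read together with its copy below. The ends of Atp5g2 and Atp5g1 shared 52.6% and 35.5% of windows with another gene, and that of Atp5g3 shared 0%. The counted levels of these 3 genes therefore cannot be compared as isoform levels.

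Nuclear and mitochondrial members together made up similar shares of the counts, and the balance between them differed between groups. Nuclear members held 1.89, 1.98, 2.10, 2.13 and 1.98% of all counts in the 5 ctrl libraries in estrus and 2.51, 2.33, 2.14, 2.22 and 2.27% in the FL1 libraries in estrus, so that the lowest FL1 library lay just above the highest ctrl library. In diestrus the nuclear share was 2.20% ± 0.141 (SD, n = 5) in ctrl and 2.17% ± 0.0725 in FL1, and the ranges overlapped. The mitochondrial share was 2.45% ± 0.283 in ctrl and 2.15% ± 0.221 in FL1 in estrus, and 2.90% ± 0.347 in ctrl and 2.35% ± 0.238 in FL1 in diestrus. Its highest value was that of ctrl in diestrus, replicate 5, at 3.51% (95% Wilson interval 3.49 to 3.52%, counting error only), against 2.64 to 2.83% in the other 4 libraries of that group. The ratio of mitochondrial to nuclear counts was 1.22 ± 0.181 in ctrl and 0.943 ± 0.130 in FL1 in estrus, and 1.33 ± 0.250 in ctrl and 1.08 ± 0.107 in FL1 in diestrus. In estrus the ranges of this ratio, 1.05 to 1.45 and 0.779 to 1.06, met at their ends, and in diestrus the ranges 1.18 to 1.77 and 0.951 to 1.21 overlapped. After scaling of the libraries by the trimmed mean of M-values (TMM), the summed nuclear level in estrus was 17760 to 21945 CPM in ctrl and 21031 to 23153 CPM in FL1, and the groups overlapped. No test was made on these sums. The mitochondrial ribosomal RNAs, which are no members, took 1.98% ± 0.355, 1.47% ± 0.307, 2.17% ± 0.688 and 1.98% ± 0.300 of all counts in the 4 groups, with their highest value, 3.33%, in the same ctrl replicate 5 in diestrus. Their part in the ratio was not tested.

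**Figure D2:**
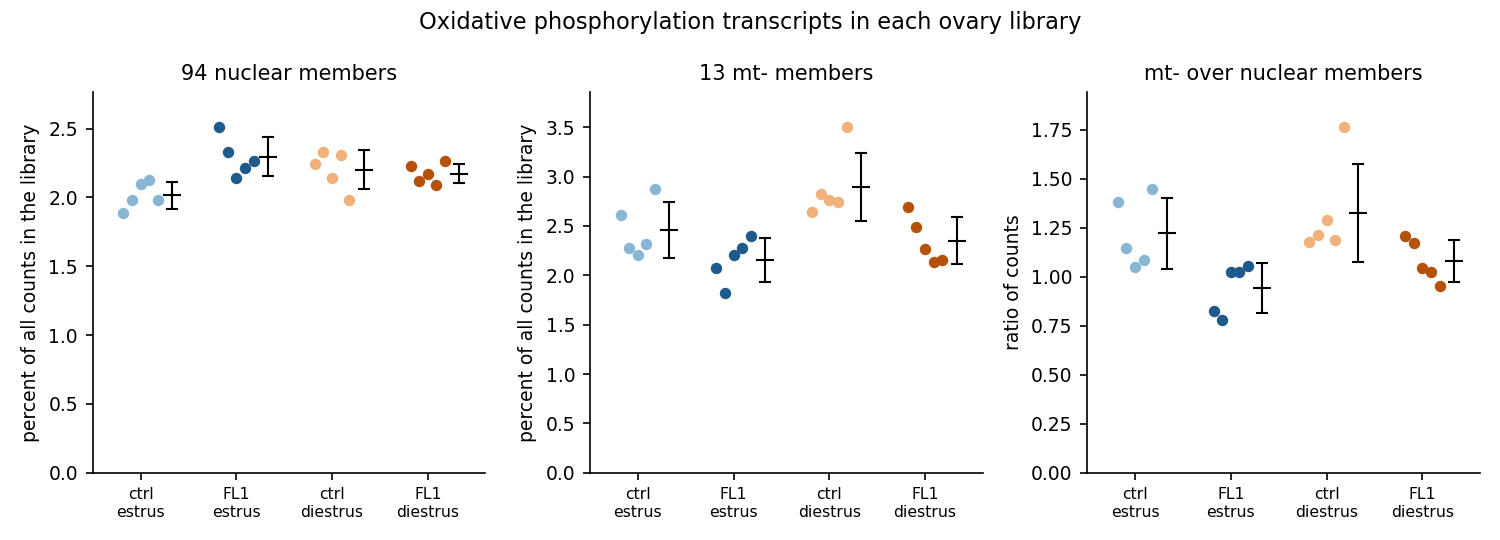
Nuclear members as percent of all counts, mitochondrial members as percent of all counts, and the ratio of mitochondrial to nuclear counts in each library, with group mean and SD (n = 5). In estrus the nuclear share of all 5 FL1 libraries (2.14 to 2.51%) lies above that of all 5 ctrl libraries (1.89 to 2.13%), while the ratio overlaps.

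In estrus, the comparison of FL1 with ctrl asks how the lines differ around ovulation. Cox5a and Cox5b, nuclear subunits that surround the catalytic core of complex IV, were higher in FL1, and no member was lower. Of 96 members tested, 2 were higher, or 2.08%, and 0 were lower, at a false discovery rate of 0.05, where 1.07% of the 13374 genes tested were higher and 1.26% were lower. The groups did not overlap for 4 members (4.17%) against 4.89% of all genes tested, so that neither count stood clear of the background. At an unadjusted p under 0.05 there were 16 of 96 members, all nuclear, against 2121 of the 13374 genes tested, a similar share.

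Cox5a (chr9:57521274-57532426, plus strand) had 330, 418, 339, 412 and 527 CPM in the ctrl libraries and 645, 579, 568, 604 and 602 CPM in the FL1 libraries in estrus. All FL1 libraries lay above all ctrl libraries. The log2 fold change was 0.56 (SE 0.13, edgeR's quasi-likelihood test, Benjamini-Hochberg adjusted p = 0.0320). Cox5b (chr1:36691449-36693681, plus strand) had 42.2, 40.9, 37.6, 47.1 and 42.9 CPM in ctrl and 56.5, 59.1, 61.1, 48.7 and 58.3 CPM in FL1, with no overlap and a log2 fold change of 0.43 (SE 0.10, edgeR adjusted p = 0.0425). Both calls were close to the threshold when single libraries were left out. That of Cox5a was kept in 2 of 10 such fits, those without ctrl replicate 5 and without FL1 replicate 3, and its adjusted p reached 0.0774 without FL1 replicate 4. That of Cox5b was kept in 2 of 10, those without ctrl replicate 5 and without FL1 replicate 4, and reached 0.111 without FL1 replicate 2. The end of Cox5b shared 14.7% of windows with another annotated gene. Sdhc, the membrane anchor of complex II (chr1:171127165-171150603, minus strand), and Uqcrc2, a core protein of complex III, also had groups that did not overlap in estrus, with log2 fold changes of 0.40 (edgeR adjusted p = 0.0710) and 0.29 (edgeR adjusted p = 0.153), and were not called.

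The sign of the small differences was more uniform than these calls. In estrus 75 of 89 nuclear members had a positive log2 fold change for FL1 over ctrl, with a median of 0.13, against 49.1% positive and a median of -0.01 over all genes tested. All 8 complex III genes (median 0.15) and all 16 complex V genes tested (median 0.15) were positive, as were 12 of 15 of complex IV (median 0.20), 25 of 31 accessory subunits of complex I (median 0.10), 6 of 7 core subunits (median 0.10) and 7 of 8 assembly factors (median 0.08). Complex II was the exception with 1 of 4 positive. Leaving out each library in turn gave 67 to 75 positive nuclear members and medians of 0.10 to 0.17. The 7 mitochondrial genes were all negative, with a median of -0.22 and none called. That pattern rested in part on ctrl replicate 5, without which 5 of 7 were negative and the median was -0.03. Genes of 1 pathway share their libraries, so these counts describe 10 animals and were not tested.

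In diestrus, Cox5a was again higher in FL1, as was Sdhc, and the other 5 members called were lower. These were Ndufa12, Ndufa13 and Ndufb10 of complex I, Sdhd of complex II and mt-Cytb of complex III. The call of Ndufa12 was lost once its copy was added. Of 96 members, 2 were higher (2.08%) and 5 were lower (5.21%), where 2.29% of the 13259 genes tested were higher and 1.82% were lower. The groups did not overlap for 9 members (9.38%), 2 higher and 7 lower, against 5.45% of all genes tested.

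Cox5a had 420, 481, 460, 472 and 428 CPM in ctrl and 567, 651, 677, 657 and 640 CPM in FL1 in diestrus, with no overlap, a log2 fold change of 0.50 (SE 0.08, edgeR adjusted p = 0.00277) and a call that held in 10 of 10 fits with 1 library left out. The line differences of Cox5a at the 2 stages were compared by the interaction of line and stage, which was 0.07 (95% interval -0.22 to 0.35, edgeR adjusted p = 0.894). Cox5b in diestrus had 43.6, 44.3, 54.2, 46.0 and 40.6 CPM in ctrl against 55.5, 50.1, 49.9, 54.6 and 48.5 CPM in FL1. Its groups overlapped and its log2 fold change of 0.18 did not pass the test (edgeR adjusted p = 0.366). Sdhc had 170, 157, 185, 165 and 175 CPM in ctrl and 211, 203, 229, 201 and 210 CPM in FL1, with no overlap and a log2 fold change of 0.31 (SE 0.07, edgeR adjusted p = 0.0347), kept in 4 of 10 fits. These were the fits without ctrl replicate 1, 3 or 5 or FL1 replicate 2, and the adjusted p reached 0.0972 without FL1 replicate 3.

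Sdhd, the second membrane anchor of complex II (chr9:50596357-50603812, minus strand), went the other way from Sdhc in diestrus. It had 36.9, 40.1, 43.4, 51.1 and 53.8 CPM in ctrl and 21.9, 39.6, 13.1, 9.62 and 20.7 CPM in FL1, so that FL1 replicate 2 lay inside the ctrl range. The log2 fold change was -1.09 (SE 0.28, edgeR adjusted p = 0.0421). The call was kept in 2 of 10 fits, those without ctrl replicate 1 and without FL1 replicate 2, and the adjusted p reached 0.106 without FL1 replicate 3. In estrus Sdhd varied strongly within both lines, with 67.2, 33.3, 40.8, 55.1 and 1.76 CPM in ctrl and 24.1, 14.7, 40.7, 52.4 and 60.9 CPM in FL1.

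Ndufb10, an accessory subunit of the complex I membrane arm (chr17:24722060-24724478, minus strand), had the lowest adjusted p among the members lower in FL1 in diestrus. It had 110, 109, 109, 125 and 121 CPM in ctrl and 77.0, 85.8, 86.9, 90.7 and 82.9 CPM in FL1. The groups did not overlap, the log2 fold change was -0.44 (SE 0.08, edgeR adjusted p = 0.00629), and the call held in 10 of 10 fits. In estrus its levels of 81.3, 86.9, 86.9, 108 and 107 CPM in ctrl and 84.0, 93.7, 90.8, 93.3 and 92.1 CPM in FL1 overlapped. Ndufa13, an accessory subunit first known as the cell death regulator GRIM-19 (chr8:69894180-69902558, minus strand), had 255, 283, 244, 299 and 217 CPM in ctrl and 210, 197, 206, 207 and 196 CPM in FL1 in diestrus, which did not overlap. Its log2 fold change was -0.35 (SE 0.09, edgeR adjusted p = 0.0410), kept in 3 of 10 fits, those without ctrl replicate 1, 3 or 5, with 0.101 reached without ctrl replicate 2.

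Ndufa12 was lower in FL1 in diestrus as counted, but not once its copy was added. It had 72.5, 116, 65.6, 96.5 and 108 CPM in ctrl and 56.2, 58.3, 60.3, 63.4 and 58.6 CPM in FL1, with a log2 fold change of -0.63 (SE 0.14, edgeR adjusted p = 0.0209). The call was lost without ctrl replicate 2 or without FL1 replicate 1, 3 or 5, with 0.0543 the highest adjusted p. Gm15920 held 350 to 1413 counts per library, as many as Ndufa12 itself with 352 to 1143. Ndufa12 and Gm15920 summed gave 177 ± 19.9 CPM in ctrl and 172 ± 8.48 CPM in FL1 in diestrus (SD, n = 5), a log2 fold change of -0.04 (edgeR adjusted p = 0.878). Reads of this sequence cannot be split between the 2 places except where they span one of the 2 differing bases, so the call for Ndufa12 is uncertain.

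Atp5g1 also has to be read with its copy, and it was not called in the main edgeR fit. In diestrus it was called by DESeq2 and with a filter of at least 1 count in total. In ctrl it had 0.938, 0.993, 9.39, 12.5 and 0.703 CPM in estrus and 0.849, 1.09, 12.2, 13.3 and 1.84 CPM in diestrus. Replicates 3 and 4 thus stood above the others at both stages, in different animals. The labels do not say whether same-numbered animals share anything else. In FL1 it had 0.587 to 2.21 CPM in estrus and 0.630 to 1.72 CPM in diestrus. Gm10039 had 128, 214, 15, 4 and 3 counts in ctrl in estrus and 214, 304, 108, 21 and 259 in diestrus, against 249 to 345 in FL1 in estrus and 196 to 287 in diestrus. The log2 fold change of Atp5g1 in diestrus was -2.14 (SE 0.74, edgeR adjusted p = 0.134).

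**Figure D3:**
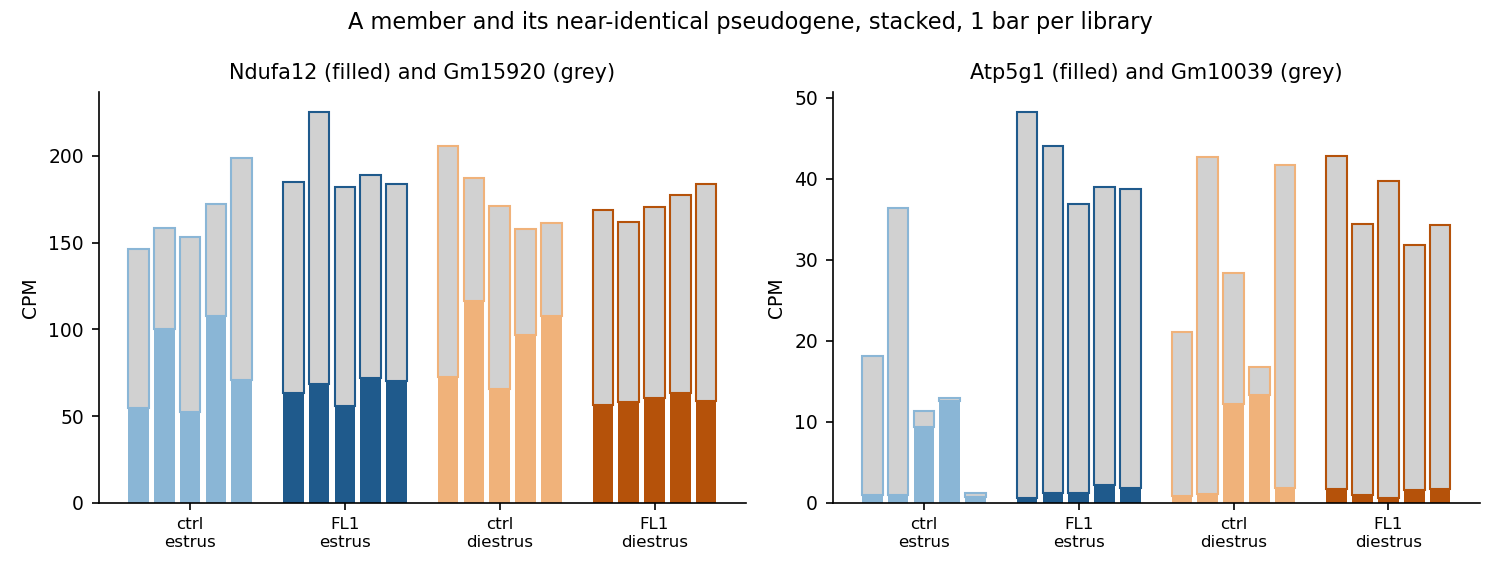
CPM of Ndufa12 with its copy Gm15920 and of Atp5g1 with its copy Gm10039, stacked for each of the 20 libraries. Gm15920 makes up much of the Ndufa12 sum in every library, and Atp5g1 exceeds 9 CPM only in replicates 3 and 4 of ctrl at each stage.

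mt-Cytb, the mitochondrial subunit of complex III (M:14145-15288), was the mitochondrial gene called between the lines in the main edgeR fit. In diestrus it had 5291, 5316, 5460, 6194 and 6814 CPM in ctrl and 4767, 4286, 3701, 3240 and 3733 CPM in FL1, with no overlap. The log2 fold change was -0.56 (SE 0.12, edgeR adjusted p = 0.0147), and the call held in 10 of 10 fits. In estrus it had 4932, 4445, 4525, 4939 and 4486 CPM in ctrl and 3973, 3489, 4016, 4068 and 4488 CPM in FL1, where a single FL1 library reached into the ctrl range and the log2 fold change of -0.22 did not pass (edgeR adjusted p = 0.363). The difference between the stages was not called either (interaction 0.34, edgeR adjusted p = 0.370). The ends of mt-Cytb share no window with another annotated gene. mt-Nd4 had 8728 ± 961 CPM in ctrl and 6498 ± 1070 CPM in FL1 in diestrus, a log2 fold change of -0.43 that narrowly missed the threshold (edgeR adjusted p = 0.0679). It was called by DESeq2, by limma-voom and with a filter of at least 1 count in total.

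In diestrus 62 of 89 nuclear members had a negative log2 fold change, with a median of -0.06 against -0.01 over all genes. Accessory complex I subunits were negative in 25 of 31 cases (median -0.10) and complex V genes in 14 of 17 (median -0.09). Core complex I subunits (3 of 7 positive), complex II (2 of 4), complex IV (6 of 14) and the assembly factors (5 of 8) were mixed. With single libraries left out, 23 to 34 of the nuclear members were positive. The 7 mitochondrial genes were all negative with a median of -0.27, and without ctrl replicate 5, the library with the highest mitochondrial share, 5 of 7 were negative and the median was -0.14. Without ctrl replicate 1 all 7 were negative and the median was -0.45.

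**Figure D4:**
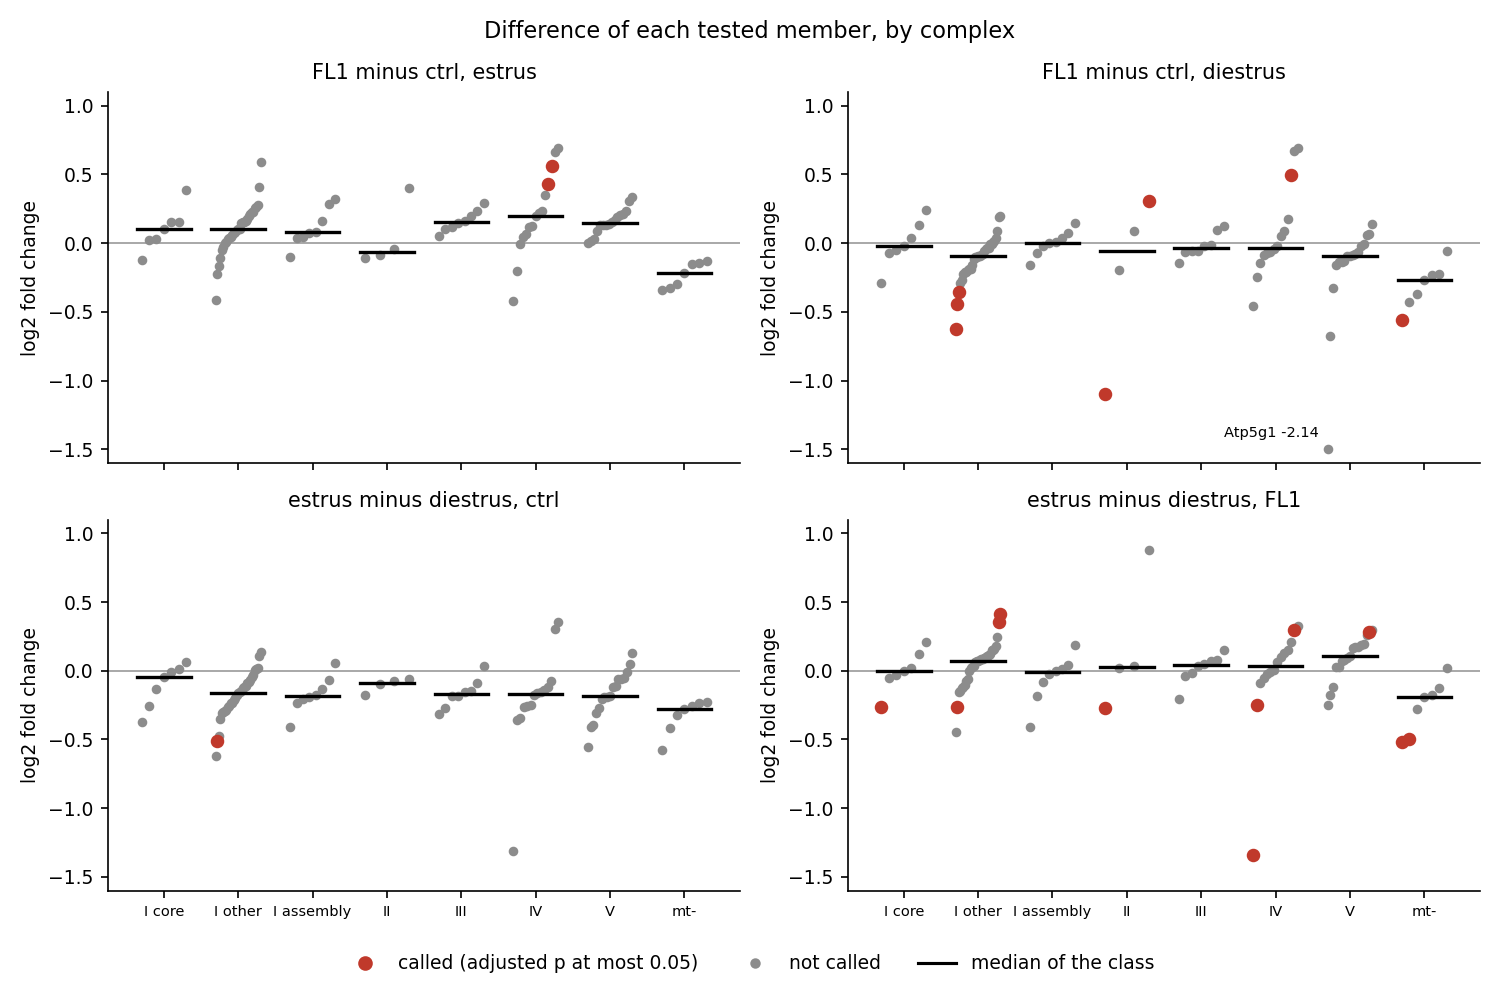
Log2 fold change of each tested member by complex in the 4 comparisons of groups, with called members in red and a line at the median of each class. Nuclear classes lie mostly above 0 for FL1 over ctrl in estrus (75 of 89) and mostly below 0 in diestrus (62 of 89), and Atp5g1 (-2.14 in diestrus) is drawn at the lower edge.

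Between the stages in ctrl, most members were lower in estrus than in diestrus by a little, and only Ndufc1 was called. Of 96 members, 0 were higher and 1 was lower (1.04%), against 1.78% higher and 1.06% lower among the 13334 genes tested. The groups did not overlap for 4 members (4.17%), all lower in estrus, against 4.52% of all genes. Ndufc1, an accessory subunit of the complex I membrane arm (chr3:51404677-51408988, minus strand), had 186, 203, 207, 223 and 236 CPM in estrus and 250, 354, 328, 322 and 245 CPM in diestrus. The log2 fold change of estrus over diestrus was -0.51 (SE 0.12, edgeR adjusted p = 0.0441), kept in 3 of 10 fits, those without the estrus replicate 5 or the diestrus replicates 1 or 5, with 0.111 reached without diestrus replicate 2. The other members without overlap were Uqcrc2, Ndufb10 and mt-Cytb, with log2 fold changes of -0.27, -0.29 and -0.32 that did not pass (edgeR adjusted p = 0.134, 0.184 and 0.172). In all, 76 of 89 nuclear members were negative with a median of -0.16, and 7 of 7 mitochondrial genes with a median of -0.28. Without diestrus replicate 5 the mitochondrial median was -0.20 with 6 of 7 negative, and without estrus replicate 5 it was -0.51 with 7 of 7 negative.

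Between the stages in FL1, 11 members were called, in both directions and from every complex but III. Of 96 members, 4 were higher in estrus (4.17%) and 7 were lower (7.29%), below the 7.42% higher and 8.49% lower among the 13350 genes tested. The groups did not overlap for 8 members (8.33%) against 12.2% of all genes. The nuclear members as a whole leaned little, 58 of 89 being positive with a median of 0.05. With library totals in place of TMM, 69 of 89 were positive with a median of 0.12, and 11 nuclear members were called higher and 1 lower in place of 4 and 5. All-gene medians moved as well, to 0.07 from 0.01.

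Ndufb8, an accessory subunit of complex I (chr19:44548572-44555440, minus strand), was higher in estrus in FL1. It had 382, 368, 283, 324 and 348 CPM in estrus and 247, 260, 252.5, 277.4 and 294 CPM in diestrus, so that a single library of each stage crossed, and its log2 fold change was 0.36 (SE 0.09, edgeR adjusted p = 0.0131). In ctrl the order was the other way, with 239, 286, 260, 306 and 329 CPM in estrus and 333, 307, 347, 343 and 298 CPM in diestrus, and did not pass (edgeR adjusted p = 0.414). Ndufa5, an accessory subunit of the matrix arm (chr6:24518666-24528013, minus strand), had 230, 181, 146, 180 and 185 CPM in estrus and 155, 141, 123, 129 and 144 CPM in diestrus in FL1, with a log2 fold change of 0.41 (SE 0.11, edgeR adjusted p = 0.0158). Both calls held in 10 of 10 fits.

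Cox7b, a complex IV subunit (chrX:106015700-106022450, plus strand), had 320, 308, 250, 283 and 303 CPM in estrus and 232, 246, 255.6, 214 and 240 CPM in diestrus in FL1. A single estrus library fell below the highest diestrus library, and the log2 fold change was 0.30 (SE 0.08, edgeR adjusted p = 0.0225). That call was lost only without diestrus replicate 4 (edgeR adjusted p = 0.0653). Atp5o, the OSCP subunit that links the head of ATP synthase to its stator stalk (ENSMUSG00000022956, chr16:91925214-91931687, minus strand), had 455, 430, 333, 383 and 347 CPM in estrus and 326, 303, 325, 323 and 325 CPM in diestrus, without overlap. Its log2 fold change of 0.28 (SE 0.09, edgeR adjusted p = 0.0463) was kept in 2 of 10 fits, those without estrus replicate 3 or 5, and reached 0.1004 without estrus replicate 2. The end of Atp5o shared 15.7% of windows with another annotated gene.

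Cox7a1 had the largest change of any member called, and it was lower in estrus. This isoform of complex IV subunit 7a (chr7:30184144-30186078, plus strand) had 17.2, 12.1, 15.8, 17.0 and 16.8 CPM in estrus and 39.6, 23.1, 53.8, 33.1 and 50.8 CPM in diestrus in FL1, with no overlap, a log2 fold change of -1.34 (SE 0.20, edgeR adjusted p = 0.000203) and a call in 10 of 10 fits. In ctrl it had 6.83, 5.63, 15.6, 8.85 and 12.8 CPM in estrus and 13.2, 36.5, 25.1, 34.9 and 14.4 CPM in diestrus. The log2 fold change there was -1.31 (SE 0.34), close to that of FL1, and missed the threshold (edgeR adjusted p = 0.0591). The level was higher in FL1 than in ctrl by a log2 fold change of 0.66 in estrus and 0.69 in diestrus, neither called (edgeR adjusted p = 0.214 and 0.219). The genes of the skeletal muscle list stayed at or below 2.50 CPM, and the list of brown fat had Ucp1 at 0 and Cidea at or below 1.70 CPM. No list covered smooth muscle. Blood and luteal lists moved in the same direction as Cox7a1 in FL1, with 4 of 4 and 5 of 6 genes lower in estrus, and the part of these cells in its change was not tested.

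**Figure D5:**
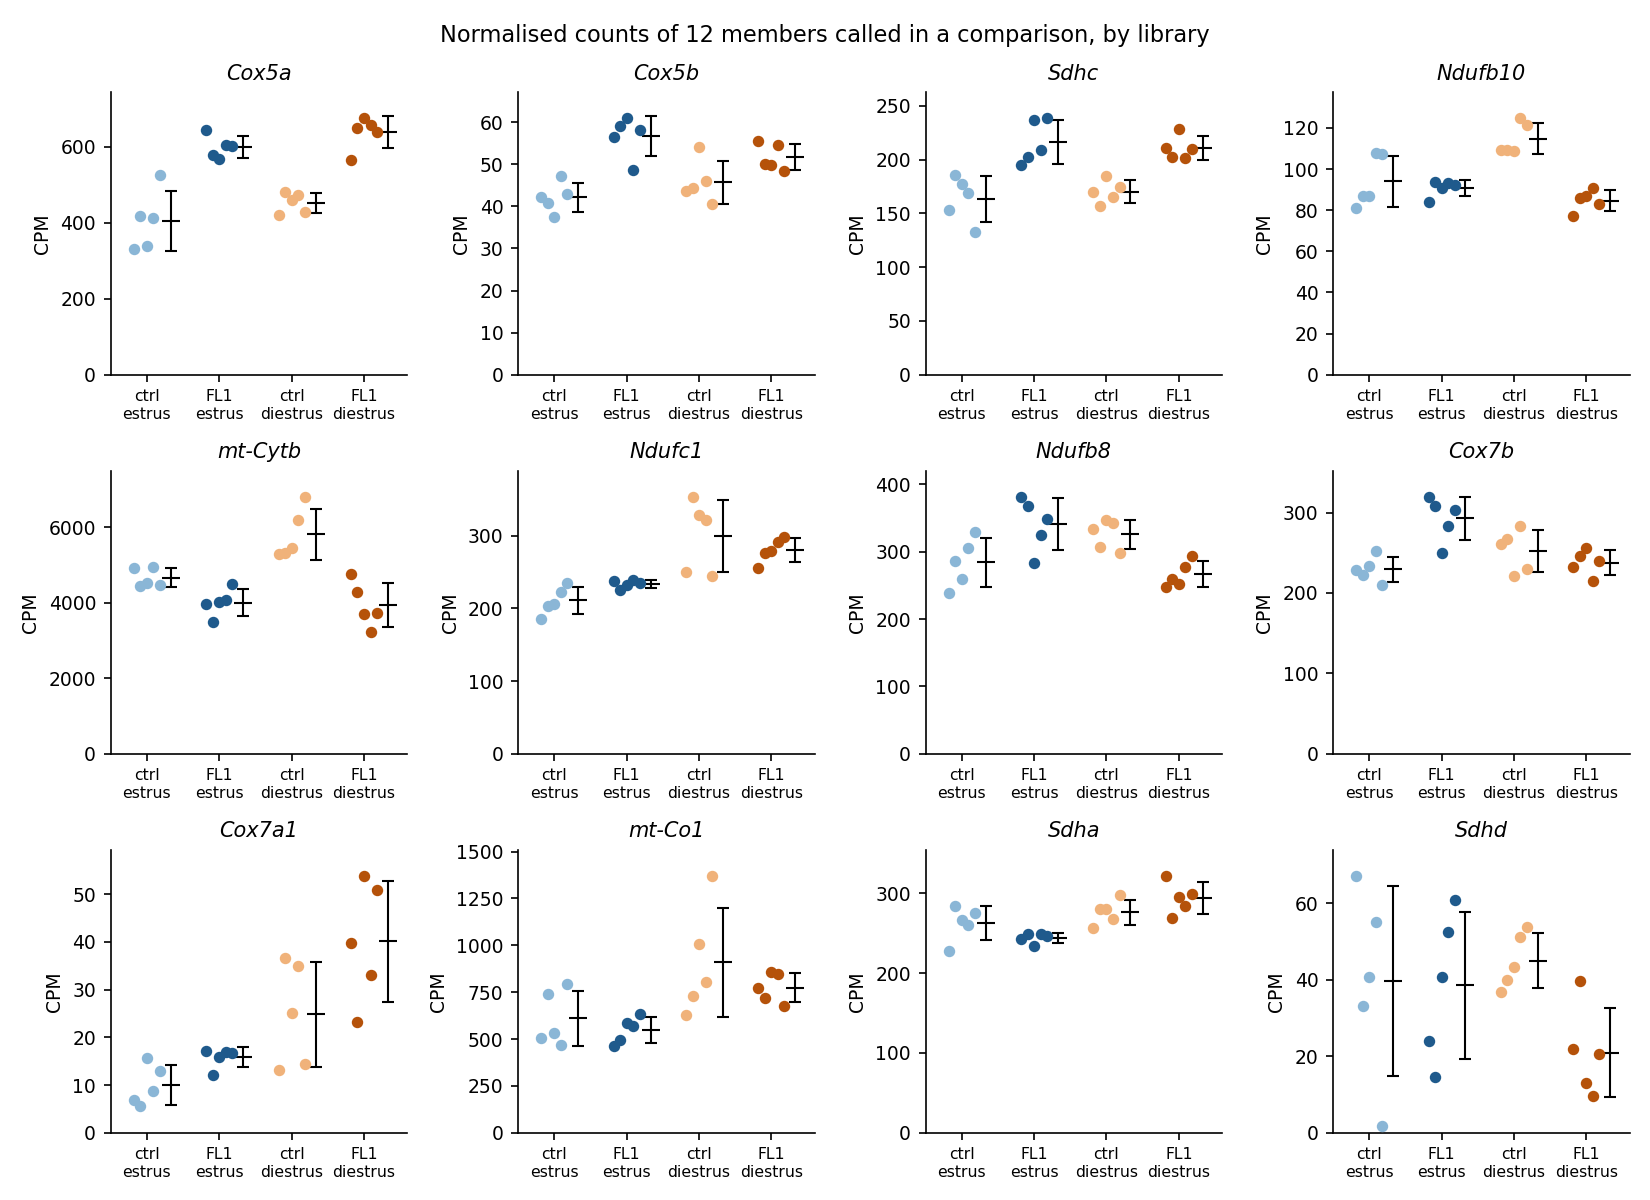
CPM of 12 called members in each library by group, with group mean and SD (n = 5). Cox5a is higher in all FL1 than in all ctrl libraries at each stage, Ndufb10 and mt-Cytb are lower in FL1 in diestrus, and Cox7a1 is higher in diestrus than in estrus in FL1 without overlap.

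The other members lower in estrus in FL1 changed by less than Cox7a1. mt-Co1, the catalytic subunit of complex IV (M:5328-6872), had 462, 493, 588, 572 and 633 CPM in estrus and 773, 719, 856, 849 and 679 CPM in diestrus, without overlap (log2 fold change -0.50, SE 0.10, edgeR adjusted p = 0.00270), although its end is shared with a nuclear copy. mt-Nd2 (M:3914-4951) had 1904, 2296, 2924, 3102 and 3297 CPM in estrus and 4182, 3889, 4017, 4009 and 3284 CPM in diestrus, where the highest estrus library just passed the lowest diestrus library (log2 fold change -0.52, SE 0.13, edgeR adjusted p = 0.0137). The end of mt-Nd2 shared 31.6% of windows with another annotated gene. Both calls held in 10 of 10 fits with 1 library left out, but neither was made in the fit of all 20 libraries. The remaining mitochondrial genes did not pass in FL1. Of 7 mitochondrial genes 6 were negative with a median of -0.19, and mt-Cytb had a log2 fold change of 0.02.

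Ndufc1 was lower in estrus in FL1 too, with 238, 225, 233, 239 and 235 CPM in estrus and 256.2, 276.7, 278, 292 and 298 CPM in diestrus (log2 fold change -0.26, SE 0.07, edgeR adjusted p = 0.0179). This was the member called between the stages in both lines. Of the FL1 fits with 1 library left out, the call was lost only without diestrus replicate 5 (edgeR adjusted p = 0.0539). Ndufc1 was also not called in FL1 with library totals, with a filter of at least 1 count in total or in the fit of all 20 libraries. Sdha, the flavoprotein of complex II (chr13:74322254-74350280, minus strand), had 243, 249, 234, 249 and 246 CPM in estrus and 322, 269, 295, 284 and 299 CPM in diestrus without overlap (log2 fold change -0.27, SE 0.07, edgeR adjusted p = 0.0189). With 1 library left out this call was lost only without diestrus replicate 1 (edgeR adjusted p = 0.0522), and it was also lost with library totals. Ndufs1, a core subunit of complex I that carries iron-sulfur clusters (chr1:63143596-63176833, minus strand), had 96.3, 105, 103, 113 and 107 CPM in estrus and 131, 132, 114, 121 and 131 CPM in diestrus, again without overlap (log2 fold change -0.26, SE 0.08, edgeR adjusted p = 0.0297). It was kept in 4 of 10 fits, those without estrus replicate 4 or 5 or diestrus replicate 3 or 4, and reached 0.0721 without estrus replicate 1. Cox6a1 (chr5:115345642-115348981, minus strand) had 955, 881, 884, 809 and 939 CPM in estrus and 1080, 954, 1128, 1035 and 1102 CPM in diestrus, and these overlapped (log2 fold change -0.25, SE 0.08, edgeR adjusted p = 0.0476), kept in 2 of 10 fits, those without estrus replicate 1 or diestrus replicate 2, with 0.128 reached without estrus replicate 4.

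The stage comparisons ran together with markers of ovarian cells. In FL1, 5 of 6 luteal genes, 3 of 5 granulosa genes tested, 1 of 3 theca genes and 4 of 4 blood genes were lower in estrus, and 1 of 7 oocyte genes, Bmp15, was higher. In ctrl the counts were 1 of 6 luteal, 1 of 5 granulosa, 1 of 3 theca and 0 of 4 blood genes lower, and no oocyte gene was called. Over all genes tested, 8.49% were lower and 7.42% higher in FL1, against 1.06% lower in ctrl. Summed luteal genes took 1.94% ± 0.860 of counts in estrus and 3.28% ± 0.622 in diestrus in ctrl (SD, n = 5). In FL1 they took 2.29% ± 0.712 and 3.22% ± 0.291. For blood genes in ctrl the shares were 0.0814 to 0.144% in estrus and 0.0410 to 0.272% in diestrus. Summed blood genes took 0.0886 to 0.181% of counts in estrus and 0.121 to 0.332% in diestrus in FL1, and summed oocyte genes 0.0226 to 0.0572% and 0.0185 to 0.0289%. Between the lines 1 granulosa gene, Foxl2, and 1 luteal gene, Lhcgr, were higher in FL1 in diestrus, where 2.29% of all genes tested were higher. Summed theca genes were lower in FL1 in diestrus, at 0.238 to 0.305% of counts against 0.314 to 0.352% in ctrl, without overlap. In estrus the theca shares of the lines overlapped. The part of these cell types in the changes of the members was not tested.

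The interaction of line and stage asks whether the line difference in estrus is another than in diestrus. None of 97 members was called by edgeR's quasi-likelihood test, where 0.0565% of the 14154 genes tested were. An unadjusted p under 0.05 was found for 18 members, against 1654 of the 14154 genes. DESeq2 called 2 members (Cox7b and Ndufb8) and 148 of all 15534 genes tested. With limma-voom 1 member (Ndufb8) and 31 of all 14154 genes were called. The 3 members with the lowest p were Ndufb8 with 0.56 on the log2 scale (SE 0.14, adjusted p = 0.119 by edgeR), Cox7b with 0.44 (SE 0.12, adjusted p = 0.159 by edgeR) and Atp5h, a stalk subunit of ATP synthase, with 0.52 (SE 0.15, adjusted p = 0.168 by edgeR). The end of Atp5h shared 57.1% of windows with another annotated gene. Of 90 nuclear members 80 were positive with a median of 0.19, against 51.02% positive and a median of 0.01 over all genes tested. All 8 genes of complex III, 16 of 17 of complex V, 13 of 15 of complex IV and 27 of 31 accessory subunits of complex I were positive. The mitochondrial genes were mixed, 5 of 7 positive with a median of 0.10. With single libraries left out, 4 to 6 were positive and the median ran from 0.01 to 0.25. The 4 comparisons share their groups in pairs, so the signs in estrus, in diestrus and in the interaction are not separate observations.

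Of the core subunits of complex I, Ndufs1 was called as given above. Ndufs3, Ndufs7, Ndufs8, Ndufv1 and Ndufv2 were not called in any comparison. Their group means, with ctrl before FL1 and estrus before diestrus, were 26.2, 26.9, 33.9 and 27.8 CPM for Ndufs3, and 129, 131, 133 and 131 CPM for Ndufs7. They were 135, 150, 161 and 154 CPM for Ndufs8, 177, 190, 194 and 187 CPM for Ndufv1 (the flavoprotein that takes up NADH), and 212, 236, 210 and 216 CPM for Ndufv2. In complex II, whose 4 genes are all nuclear, Sdhc was higher and Sdhd lower in FL1 in diestrus, Sdha was lower in estrus in FL1, and the iron-sulfur subunit Sdhb with 271, 255.6, 289 and 252.3 CPM was not called. The called subunits of this complex thus did not share a direction.

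Promoters from RefSeq (GRCm38.p6, 250 bases before to 50 after the start) were matched for 74 of the 94 nuclear members and searched on both strands for words of factors known for respiratory genes. The NRF1 word GCGCATGC was in the promoters of 12 members (16.2%) and of 3.05% of all 27025 genes. The GABPA (NRF2) word CCGGAAG was in 18 (24.3%) against 9.93%, the YY1 word AAGATGGCG in 8 (10.8%) against 1.64%, and the ESRRA word TCAAGGTCA in 2 (2.70%) against 0.466%. In all 32 members held at least 1 word. Of the 14 called nuclear members with a promoter, 3 held a word: Cox6a1 (NRF1 and GABPA), Sdhd (GABPA and ESRRA) and Ndufc1 (YY1). The stretches before the start of Sdhd (chr9:50603859-50603935, minus strand) and Cox6a1 (chr5:115348959-115349160, minus strand) are shown because these called members hold 2 kinds of word. Capitals mark the GABPA word, read from the opposite strand as CTTCCGG, and in Cox6a1 also the NRF1 word, which overlaps itself on both strands.
Sdhd: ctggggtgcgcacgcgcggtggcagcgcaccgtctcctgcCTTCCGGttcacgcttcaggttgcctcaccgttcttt
Cox6a1: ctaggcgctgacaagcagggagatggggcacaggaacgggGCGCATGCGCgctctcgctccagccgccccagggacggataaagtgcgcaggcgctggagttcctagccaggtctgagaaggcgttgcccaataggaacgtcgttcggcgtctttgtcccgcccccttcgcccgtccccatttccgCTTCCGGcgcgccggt
Cox5a, the member that differed between the lines at both stages, is not among the holders of a word. Whether Cox5a was among the 14 called members matched to a promoter is not given here.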

How the data were processed

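The QuantSeq 3′ mRNA-Seq forward kit was used by the authors on poly(A) RNA of whole ovaries. Reads were trimmed, and the uniquely assigned reads per Ensembl gene were deposited by the authors as raw counts, 1 file per library. STAR, Cuffdiff and the build GRCm38 are named in the submitters' processing notes; the counting tool and its strand setting are not given in the sources used here. Members and lists were chosen with earlier results of these data known.

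From the counts, edgeR 4.0.16 (R 4.3.3) with TMM scaling and its expression filter was run over all genes of the 2 groups compared (all 4 for the interaction), with Benjamini-Hochberg adjustment over all genes tested and a threshold of 0.05. CPM values are TMM-scaled. DESeq2 1.42.0, limma 3.58.1 (voom), other scalings, other filters, a fit of all 20 libraries and left-out libraries were alternatives. On simulated counts, edgeR recovered 61% of 200 genes changed by 1 on the log2 scale in the estrus comparison (13374 genes) and 78.5% in the diestrus comparison (13259 genes). Most called members changed by less than 1, and the recovery of such smaller changes was not simulated. The labels do not say what the replicate numbers stand for. Same-numbered libraries of different groups correlated at -0.0995 to 0.133 in their deviations, which cannot exclude a shared origin or handling. With 5 against 5, the smallest two-sided exact permutation p is 0.00794. Libraries of 1 group are different animals.

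Named were members called in any comparison, the 3 with the lowest p where none was called, the mitochondrial genes, the complex I core, complex II, tissue isoforms, the highest and lowest member of each complex, members with shared ends, and called genes of the lists. A member that the rule names is not reported here. Uqcrc2 was named after its values were seen. Python 3.11.15 was used for sums, sequences and figures.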

Additional observations from a re-analysis of the deposited data

Results flagged for a closer look

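Of 104 groups of 5 values examined for a single library far from the other 4, 7 were flagged, where chance flags about 1 in 20. In ctrl in estrus, replicate 5 stood above the rest for mt-Nd2 (5779 CPM against 2413 to 3248), mt-Nd5 (1060 against 571 to 707) and mt-Nd6 (9.49 against 3.11 to 4.80). In ctrl in diestrus, another animal with the replicate number 5 stood above the rest for mt-Nd6 (17.1 CPM against 1.89 to 4.05) and for the summed mitochondrial share (3.51% against 2.64 to 2.83%). In FL1 in estrus, replicate 2 had a low Cox7a1 level (12.1 CPM against 15.8 to 17.2), and in FL1 in diestrus replicate 2 had a low Atp5o level (303 CPM against 323 to 326).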

How the results depend on the processing

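The numbers of members called depended on the fit. FL1 against ctrl in estrus gave 2 as reported, 1 with a filter of at least 1 count in total, 4 with DESeq2, 4 with limma-voom, 1 with a replicate block and 7 in a fit of all 20 libraries. In diestrus the 7 became 11 with DESeq2 and 3 in the fit of all 20 libraries. The 1 member called between the stages in ctrl became 0 with library totals, 2 with at least 1 count, 7 with DESeq2, 5 with limma-voom, 0 with a replicate block and 6 in the fit of all 20 libraries, and the 11 in FL1 became 5 in that fit. The interaction gave 0 with edgeR, 2 with DESeq2 and 1 with limma-voom. With single libraries left out the counts were 0 to 3 and 3 to 8 for the lines in estrus and diestrus, 0 to 3 and 7 to 11 for the stages in ctrl and FL1, and 0 to 0 for the interaction. The labels give no pairing of same-numbered animals, and each correlated best with its own number in only 1 to 2 of 5 cases. The replicate block, which gave 5 in diestrus and 9 in FL1, therefore tests no known pairing. For the named members, 201 values under other settings kept their side of the threshold and direction, 32 were weaker, 3 stronger and 0 reversed; with libraries left out, 197 kept it and 73 were weaker. Causes were not tested. Depth limits the members under about 5 CPM, where 5 animals per group leave wide errors, and 3′ reads leave 6 mitochondrial genes without usable counts.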

Other observations

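Assembly factors of the respiratory chain that are not members moved mainly in single cases. Of 41 assembly factors tested outside the members, 1 was higher and 1 lower in FL1 in diestrus, where 2.29% of all genes tested were higher and 1.82% lower. Lyrm7, which loads the Rieske protein into complex III, had 0.773 ± 0.352 CPM (SD, n = 5, range 0.150 to 0.987) in ctrl and 6.98 ± 1.03 CPM (range 5.82 to 8.24) in FL1 in diestrus, a log2 fold change of 3.14 (SE 0.35, edgeR adjusted p = 0.000169). The ctrl libraries rested on 1 to 9 counts each. In estrus the levels were 2.81 ± 1.64 CPM in ctrl and 6.15 ± 0.919 CPM in FL1, a log2 fold change of 1.12 that did not pass (edgeR adjusted p = 0.167), and the interaction of line and stage was not called (-2.02, edgeR adjusted p = 0.129). Surf1, needed for complex IV assembly, was lower by a log2 fold change of -0.40 (edgeR adjusted p = 0.0415). Between the stages, the copper chaperone Cox17 was lower in estrus in ctrl (-0.72, edgeR adjusted p = 0.0485), where 1.06% of all genes tested were lower. In FL1 Tmem126a and Uqcc2 were higher and Sco1 lower in estrus, 3 of the 41 tested there. Over all genes tested in FL1, 7.42% were higher and 8.49% lower in estrus.

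Of 24 genes tested for the expression of mitochondrial DNA, none was called by edgeR in the 4 comparisons of groups, with 2, 1, 0 and 4 at an unadjusted p under 0.05. Over all genes tested these counts were 2121 of 13374, 2351 of 13259, 2052 of 13334 and 4015 of 13350. In the list of other mitochondrial proteins (29 genes), Hspe1, a matrix chaperonin, was lower in FL1 in diestrus (-0.63, edgeR adjusted p = 0.0062), and 6 genes, among them Suclg1, Ogdh and Hspd1 of the matrix, were lower in estrus in FL1 with 0 higher. Over all genes tested between the stages in FL1, 8.49% were lower and 7.42% higher, and between the lines in diestrus 1.82% were lower in FL1. Suclg1 was lower in estrus in ctrl as well (-0.66, edgeR adjusted p = 0.0219). Of 14 regulators of mitochondrial biogenesis tested, Yy1 (-0.26, edgeR adjusted p = 0.0369) and Ppara (-0.75, edgeR adjusted p = 0.0422) were lower in estrus in FL1. Of 3 other subunits or carriers tested, the uncoupling protein Ucp2 was higher in estrus in FL1 (0.43, edgeR adjusted p = 0.0072).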
